A study of Caenorhabditis elegans with 11 samples.

Results

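The genes described here are skr-5, skr-7, skr-8, skr-10 and skr-12, members of the Skp1-related (skr) family of Caenorhabditis elegans, taken by gene name from the authors' deposited expression table. All 5 were found among its 882 genes. Worms were young adults in 4 groups, each treated with 2 mM auxin for 24 hours at 20 °C. The 3 germline-depleted samples (strain DG4700) carried sacy-1(tn1880), in which SACY-1, the worm counterpart of the human spliceosomal helicase DDX41, bears an auxin-inducible degron with GFP and myc tags, together with the transgene ieSi64, which expresses the auxin receptor TIR1 from the gld-1 promoter. The 3 germline control samples (CA1352) carried ieSi64 and unc-119(ed3), with no sacy-1 allele listed. The 3 soma-depleted samples (DG4703) carried sacy-1(tn1880) and ieSi57, which expresses TIR1 from the eft-3 promoter, and the 2 soma control samples (CA1200) carried ieSi57 and unc-119(ed3). The depleted genotypes as labelled do not include unc-119(ed3), so this allele and the SACY-1 tag cannot be told apart in either comparison. RNA was poly(A)+ RNA from whole-animal lysates, so germline and soma name where SACY-1 was removed, and fewer cells of a type cannot be told apart from less RNA per cell.

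Skp1 proteins are the adaptors of SCF ubiquitin ligases. In these complexes Skp1 bridges the scaffold cullin CUL-1 to an F-box protein, and the F-box protein binds the substrate that is to be ubiquitinated. Many animals have a single Skp1, whereas C. elegans has a large skr family alongside a very large set of F-box genes. Of the family, skr-7, skr-8 and skr-10 have been tied by RNA interference to embryonic and larval development, and skr-5 to the intracellular pathogen response, in which it acts with the cullin CUL-6.

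The authors' deposited table gives each gene as a mean FPKM per group (fragment counts per length of transcript and per size of library), without values for single samples. All levels, log2 fold changes and adjusted p-values below are from that table. No value below has a replicate spread, and the depth of each sample is unknown. Every one of the 882 listed genes changed by at least 1 on the log2 scale, at an adjusted p under 0.05, in the germline or the soma comparison. A listed gene that was not called in one comparison therefore had to be called in the other. Markers of germline, muscle or other tissues were not checked here, since the table holds changed genes only.

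The 5 genes fell into 2 patterns. The genes skr-7, skr-8, skr-10 and skr-12 rose after germline depletion of SACY-1, with log2 fold changes from 1.46 to 1.93, and did not pass the test after soma depletion. The gene skr-5 fell after soma depletion, with a log2 fold change of -1.02, and did not pass after germline depletion. In the germline comparison 4 of 5 members were called higher (adjusted p under 0.05), and none lower, and 41.8% of all listed genes were called higher and 21.1% lower. In the soma comparison 1 of 5 members was called lower, and none higher, and 29.8% of all listed genes were called lower and 29.7% higher. The median log2 fold change of the 5 members was 1.84 in the germline comparison, against 0.33 over all listed genes, and -0.26 in the soma comparison, against -0.08 over all listed genes.

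Among the members that rose, skr-8 (WBGene00004814) had the largest change. It lies on chromosome IV at 17165250 to 17165834 on the minus strand (WBcel235). The authors' deposited table gave skr-8 a mean of 50.2 FPKM in germline-depleted worms and 13.2 FPKM in germline controls, and 49.5 FPKM in soma-depleted worms and 57.3 FPKM in soma controls. The germline controls thus stood below the other 3 groups, whose means lay within 1.16 times of each other. The deposited log2 fold change after germline depletion was 1.93 (DESeq2 adjusted p = 2.3e-18), and after soma depletion it was -0.21 (adjusted p = 0.562).

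The gene skr-12 (WBGene00004818; chromosome IV, 17167274 to 17167792, plus strand) is the next skr gene along the chromosome from skr-8 and had nearly the same profile at a lower level. It had, in the authors' deposited table, 35.9 FPKM in germline-depleted worms and 9.54 FPKM in germline controls, and 38.2 FPKM in soma-depleted worms and 44.1 FPKM in soma controls. Again the germline controls alone were low. Its deposited log2 fold change was 1.91 in the germline comparison (DESeq2 adjusted p = 1.5e-14) and -0.21 in the soma comparison (adjusted p = 0.613).

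The gene skr-10 (WBGene00004816; chromosome IV, 15946807 to 15947385, plus strand) lies apart from the other skr genes of its chromosome. Its means in the authors' deposited table were 45.7 FPKM in germline-depleted worms and 12.7 FPKM in germline controls, and 49.0 FPKM in soma-depleted worms and 58.8 FPKM in soma controls. The order of the 4 groups was the same as for skr-12. The deposited log2 fold change of skr-10 was 1.84 after germline depletion (DESeq2 adjusted p = 4.7e-14) and -0.26 after soma depletion (adjusted p = 0.501).

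The gene skr-7 (WBGene00004813; chromosome V, 4422427 to 4423011, plus strand) was the most abundant member in soma controls. By the authors' deposited table it had 42.9 FPKM in germline-depleted worms and 15.5 FPKM in germline controls, and 58.5 FPKM in soma-depleted worms and 72.6 FPKM in soma controls. Its germline-depleted mean was 0.591 times the soma control mean, whereas this ratio was 0.876 for skr-8, 0.777 for skr-10 and 0.814 for skr-12. The deposited log2 fold change of skr-7 was 1.46 after germline depletion (DESeq2 adjusted p = 0.00014) and -0.31 after soma depletion (adjusted p = 0.612).

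**Figure D1:**
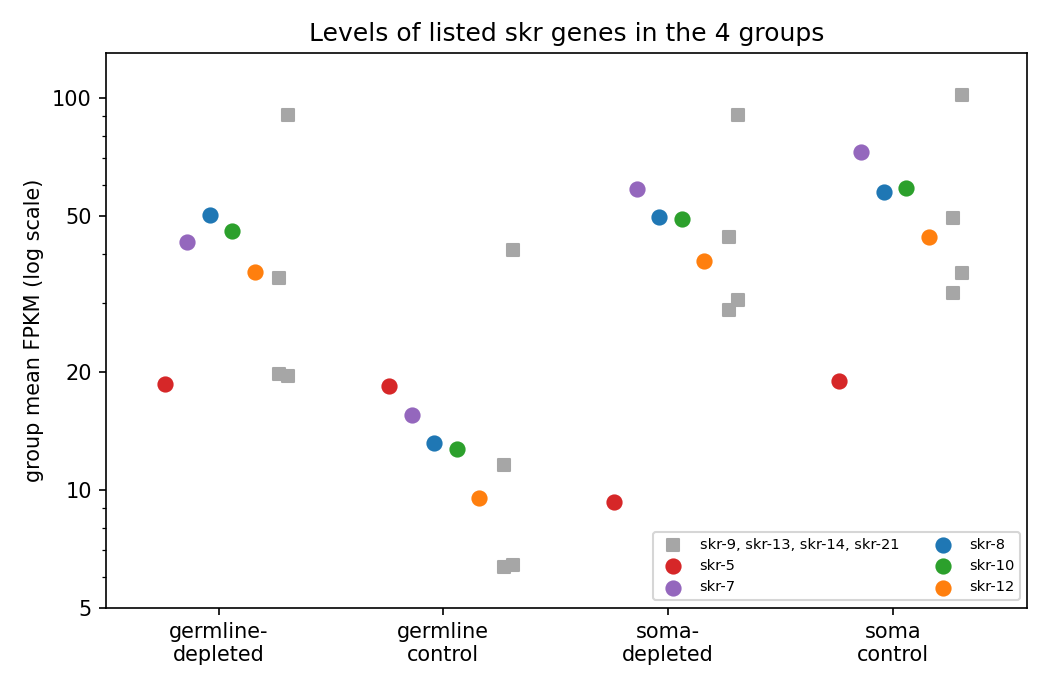
Group mean FPKM on a log scale for the 9 skr genes in the authors' deposited table; circles are the 5 members described here and grey squares are skr-9, skr-13, skr-14 and skr-21, with 1 point per gene and group. In germline controls the 4 members other than skr-5 lie between 9.54 and 15.5 FPKM, below their means in the other groups, and skr-5 is lowest in soma-depleted worms at 9.31 FPKM.

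The gene skr-5 (WBGene00004811; chromosome V, 17347902 to 17348723, plus strand) followed another order. The authors' deposited table lists 18.6 FPKM in germline-depleted worms and 18.4 FPKM in germline controls, and 9.31 FPKM in soma-depleted worms and 18.9 FPKM in soma controls. The soma-depleted group alone was low, and the other 3 means lay between 18.4 and 18.9 FPKM. The deposited log2 fold change was -1.02 after soma depletion (DESeq2 adjusted p = 5.9e-07) and 0.02 after germline depletion (adjusted p = 0.945). Its mean count over all samples was 224, the smallest of the members, whose largest was 829 for skr-7.

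The order of levels differed between groups. In soma controls the order was skr-7, skr-10, skr-8, skr-12 and skr-5, with skr-10 at 58.8 FPKM and skr-8 at 57.3 FPKM. In germline controls it was skr-5, skr-7, skr-8, skr-10 and skr-12. The member with the lowest mean in soma controls thus had the highest in germline controls: the other 4 were 4.36 to 4.67 times higher in soma controls than in germline controls while skr-5 differed by 1.03 times. The authors' deposited table holds no test of one control group against the other, and whether neighbours in these orders differ beyond their spread cannot be said from group means.

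Soma control means were the highest of the 4 groups for all 5 members, as they were for 26.2% of all listed genes. Germline control means were the lowest of the 4 groups for skr-7, skr-8, skr-10 and skr-12, as they were for 38.9% of all listed genes and for 81.6% of those called higher after germline depletion. The germline fold changes of these 4 members therefore run together with a low germline control group. Soma-depleted means were 0.805 to 0.867 times those of soma controls for the 4 genes. Whether the germline controls or the germline-depleted worms are the unusual group was not tested.

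A limit on the error of these fold changes can be drawn from the adjusted p-values, since an adjusted p is never below the unadjusted one. If the authors' p-values come from a Wald test of the log2 fold change, which no header or label says, the standard error of the germline log2 fold change was at most 0.22 for skr-8, 0.24 for skr-10, 0.25 for skr-12 and 0.38 for skr-7. On the same reading the widest 95% interval was 1.499 to 2.37 for skr-8 and 0.71 to 2.22 for skr-7. For skr-5 in the soma comparison it was -1.43 to -0.62. For the soma log2 fold changes that did not pass, the widest interval was -1.52 to 0.90 for skr-7 and -0.93 to 0.50 for skr-8. The true intervals can be narrower, so whether a change of moderate size was excluded in soma-depleted worms cannot be said. The germline log2 fold change exceeded that in the soma by 2.14 for skr-8, 2.12 for skr-12, 2.11 for skr-10, 1.78 for skr-7 and 1.04 for skr-5. These differences between the comparisons were not tested.

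**Figure D2:**
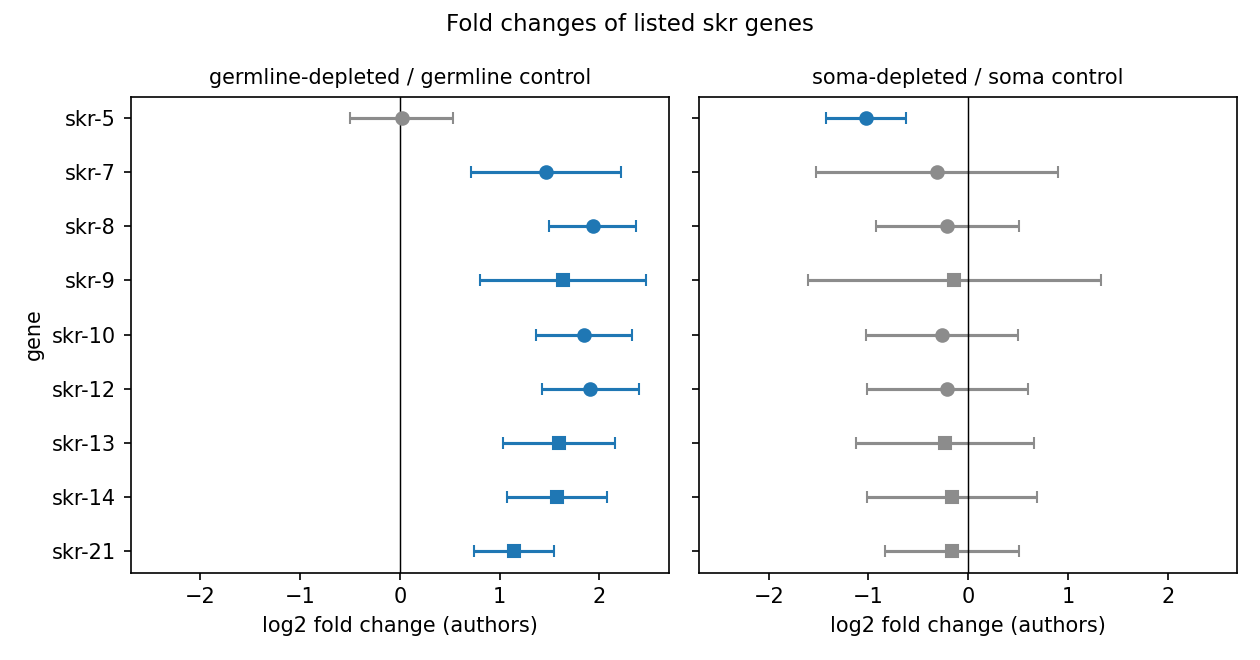
Log2 fold changes of the 9 listed skr genes from the authors' deposited table, germline comparison on the left and soma comparison on the right; circles are members, squares other skr genes, blue marks an adjusted p under 0.05 and grey one at or above it. Bars span the widest 95% interval that the adjusted p allows if it comes from a Wald test; skr-5 (-1.02) is the only blue point in the soma panel and the only grey point in the germline panel.

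The Ensembl annotation holds 20 skr genes, of which 9 were in the authors' deposited table. Besides the 5 members these were skr-9, skr-13, skr-14 and skr-21, and all 4 rose after germline depletion and none was called in the soma. The authors' deposited table gave skr-9 19.8 FPKM in germline-depleted worms and 6.34 FPKM in germline controls (log2 fold change 1.64, DESeq2 adjusted p = 0.00011). For skr-13 these means were 19.5 and 6.43 FPKM in germline-depleted worms and germline controls (log2 fold change 1.60, adjusted p = 2.4e-08). For skr-14 they were 34.6 and 11.6 FPKM (1.58, adjusted p = 6.7e-10), and for skr-21, the most abundant, 90.4 and 40.8 FPKM (1.15, adjusted p = 2.9e-08), each in the same order of groups. Summed over the 8 skr genes other than skr-5, the level was 339 FPKM in germline-depleted worms and 116 FPKM in germline controls, and 389 FPKM in soma-depleted worms and 451 FPKM in soma controls. The other 11 skr genes, among them skr-1 and skr-2, whose products are the principal Skp1 proteins of the worm, and skr-3 and skr-4, close relatives of skr-5, were not among the 882 listed genes.

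The 8 skr genes that rose shared a gene structure that was not used to choose them. Each is annotated as a single exon of 507 to 585 bases with 1 transcript and no annotated untranslated region. The gene skr-5 has 3 exons, which together span 619 bases, with 2 untranslated parts annotated. A single exon was annotated for 60% of the 20 skr genes, for 9.40% of the 819 annotated protein-coding genes in the expression table and for 3.49% of the 19985 annotated protein-coding genes. The single-exon genes skr-15, skr-16, skr-19 and skr-20 were not listed, so not every single-exon gene of the family was in the table.

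Several of these genes are neighbours. On chromosome IV skr-13, skr-9, skr-8 and skr-12 lie in this order within 5696 bases, from 17162097 to 17167792, with the strand alternating from gene to gene. The gaps between them are 957, 1092 and 1439 bases. On chromosome V skr-14 and skr-7 lie 851 bases apart and point away from each other. Within each of these stretches every skr gene rose after germline depletion. Their log2 fold changes were 1.60 to 1.93 on chromosome IV and 1.58 and 1.46 on chromosome V. Each was listed through that rise, so the shared direction is set by the table's selection. Other listed genes within 25 kb went both ways in the germline comparison. Near skr-14 and skr-7, Y47D7A.13 had a log2 fold change of -1.09 and F13A2.4 one of 1.10. Near the chromosome IV genes, Y116A8C.48 had one of 1.15. Closely related paralogs can share reads, and no source used here says how the authors' counting assigned such reads, so values of single skr genes are less certain than their sum.

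**Figure D3:**
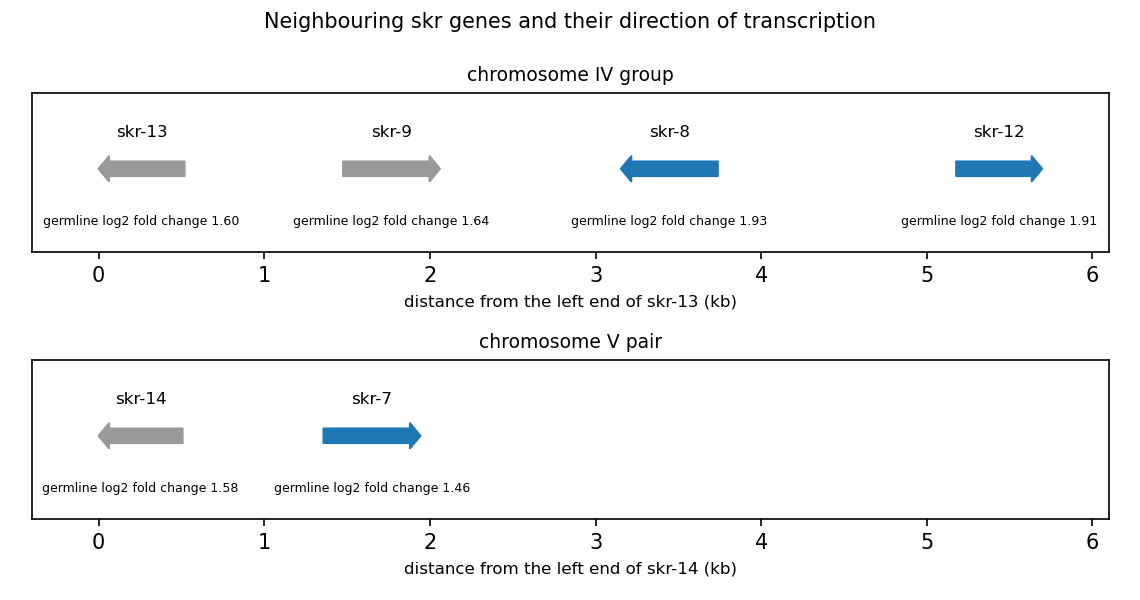
Position and direction of transcription of the skr-13 to skr-12 group on chromosome IV and of the skr-14 and skr-7 pair on chromosome V, drawn to scale as distance in kb from the left end of the first gene; blue arrows are members and grey arrows other skr genes. The germline log2 fold change from the authors' deposited table is printed under each gene and lies between 1.46 and 1.93.

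The gene skr-5 also has listed neighbours within 25 kb, all of them F-box genes. It starts 120 bases after the end of fbxa-189, which lies on the same strand. For fbxa-189 the authors' deposited table lists 10.4 FPKM in germline-depleted worms and 8.19 FPKM in germline controls (log2 fold change 0.34, DESeq2 adjusted p = 0.0329), and 21.3 FPKM in soma-depleted worms and 9.21 FPKM in soma controls (1.21, adjusted p = 2.9e-15). After soma depletion fbxa-189 was thus higher and skr-5 lower. A retained intron listed for fbxa-188 and fbxa-189, at 17346131 to 17346367 on chromosome V, had an inclusion level difference of -0.368 in the soma comparison (q = 8.4e-06) and -0.030 in the germline comparison (q = 1) in the authors' deposited table of splicing events. Farther upstream fbxa-186 had 0.761 FPKM in germline-depleted worms and 1.95 FPKM in germline controls (log2 fold change -1.35, adjusted p = 4.7e-05), and fbxa-185 fell in both comparisons, with log2 fold changes of -1.01 in the germline and -0.997 in the soma. Neighbouring genes here did not share a direction.

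Likeness of profile was measured as the root mean square distance between log2 FPKM values over the 4 group means, each gene centred on its own mean, so that 0 is an identical shape. The members skr-10 and skr-12 were 0.03 apart, skr-8 and skr-12 were 0.05 apart, and skr-8 and skr-10 were 0.06 apart. The gene skr-7 stood 0.16 to 0.22 from these 3 and was closer to skr-14 (0.09) and skr-9 (0.10). Over the 28 pairs of skr genes without skr-5 the median distance was 0.17, and over the 8 pairs with skr-5 it was 1.07. The skr genes other than skr-5 were all listed through a germline rise without a soma call, so their likeness is partly set by the table's selection. Listed genes within 0.1, other skr genes included, numbered 19 for skr-7, 8 for skr-10, 6 for skr-8, 6 for skr-12 and 9 for skr-5. A median distance over all listed genes is not given here.

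Among all listed genes, the 3 nearest to skr-8 were skr-12, EEED8.4 (0.05) and skr-10. Those nearest to skr-10 were dct-13 (0.02), skr-12 and EEED8.12 (0.04), and those nearest to skr-12 were skr-10, skr-8 and dct-13 (0.05). The genes nearest to skr-7 were C47D12.4 (0.02) and the F-box genes fbxb-75 and fbxb-63 (both 0.03). The gene fbxb-75 had 4.05 FPKM in germline-depleted worms and 1.53 FPKM in germline controls, and 5.75 FPKM in soma-depleted worms and 7.11 FPKM in soma controls in the authors' deposited table. Its level was far below that of skr-7 in each group, with nearly the same shape. The genes nearest to skr-5 were the tetraspanin gene tsp-10 (0.04), the C-type lectin gene clec-169 (0.04) and chhy-1 (0.05). The gene tsp-10 had, by the authors' deposited table, 41.5 FPKM in germline-depleted worms and 41.99 FPKM in germline controls, and 19.8 FPKM in soma-depleted worms and 42.5 FPKM in soma controls.

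F-box proteins are the partners that Skp1 proteins hold. The authors' deposited table held 55 genes of the F-box list, 50 of the 331 that are annotated as protein-coding (15.1%) and 5 annotated as pseudogenes, where 812 of all 19985 annotated protein-coding genes (4.06%) were listed. Of the 55 genes, 48 were called higher and 3 lower after germline depletion, with a median log2 fold change of 1.35 against 0.33 over all listed genes. Of all 882 listed genes, 41.8% were called higher and 21.1% lower in that comparison. In the soma comparison 3 of the F-box genes were called higher and 3 lower, where 29.7% and 29.8% of all listed genes were. The median level of the 55 genes was 3.36 FPKM in germline-depleted worms and 1.44 FPKM in germline controls, and 4.03 FPKM in soma-depleted worms and 4.29 FPKM in soma controls, which is the order of groups seen in skr-7, skr-10 and skr-12. The germline control was the lowest group for 47 of the 55 (85.5%), as it was for 38.9% of all listed genes. Among all genes called higher after germline depletion this share was 81.6%, near that of the F-box list. None of the 55 was a single-exon gene, unlike the skr genes that rose with them.

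The called F-box genes with the smallest germline adjusted p were fbxb-45, fbxb-3, fbxa-145 and fbxb-7. By the authors' deposited table fbxb-45 had 10.6 FPKM in germline-depleted worms and 3.44 FPKM in germline controls (log2 fold change 1.62, DESeq2 adjusted p = 9.0e-13), and fbxb-3 had 5.55 FPKM and 1.47 FPKM in the same groups (1.91, adjusted p = 3.9e-12). For fbxa-145 the log2 fold change was 1.003 and for fbxb-7 it was 1.37. All of these F-box genes were at lower levels than skr-7, skr-8, skr-10 and skr-12 in every group.

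**Figure D4:**
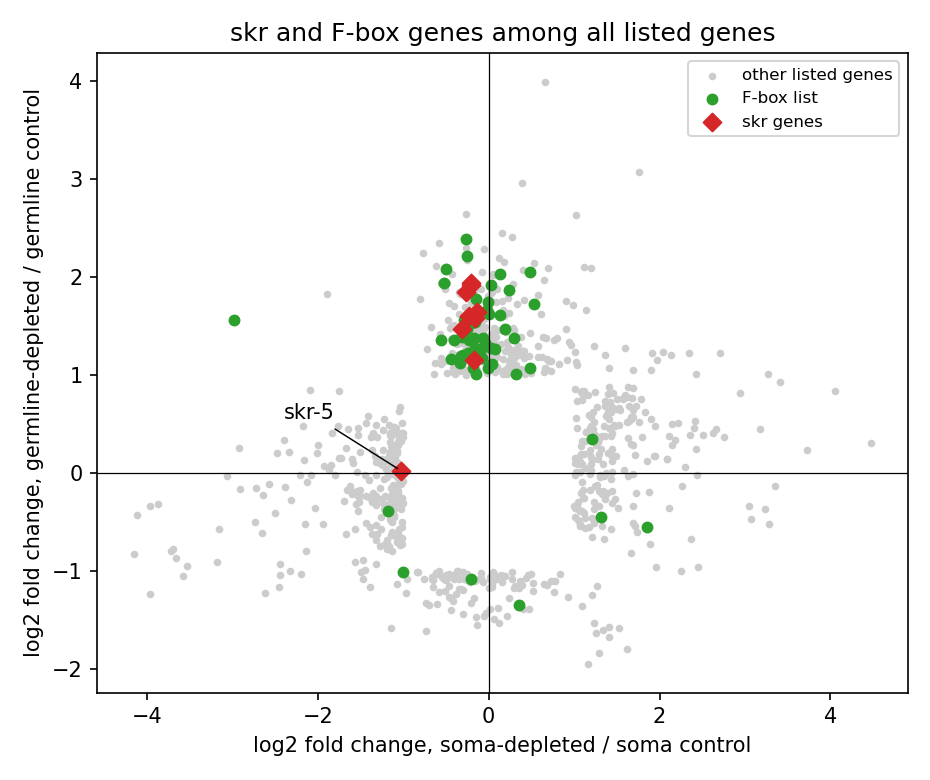
Log2 fold changes of all 882 listed genes from the authors' deposited table, soma comparison on the horizontal axis and germline comparison on the vertical axis; red diamonds are the 9 skr genes, green points the 55 genes of the F-box list and grey points the other genes. The empty centre comes from the table's selection; 8 skr genes lie near 0 in the soma and between 1.15 and 1.93 in the germline, and skr-5 lies apart at -1.02 and 0.02.

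A further list held BATH, BTB, MATH and kelch genes, taken by gene name alone, and named adaptors of other cullins. Of its 105 annotated genes, 5 were in the table (4.76%, near the 4.06% of all protein-coding genes). Of these 5, 2 were called higher after germline depletion, and 2 higher and 1 lower after soma depletion. The shares called among all listed genes were 41.8% higher in the germline, and 29.7% higher and 29.8% lower in the soma. The authors' deposited table gave bath-10 a germline log2 fold change of 1.61, bath-9 of 1.14, bath-25 of 0.41, bath-47 of -0.21 and btb-17 of 0.14. In the soma comparison the log2 fold changes were -0.03 for bath-10, -0.09 for bath-9, 1.44 for bath-25, -1.06 for bath-47 and 1.28 for btb-17. None of the 23 annotated genes of the list of cullins, RING subunits and SCF regulators, which includes cul-1, cul-6 and rbx-1, was among the 882, nor was any of 33 genes of the proteasome list. With 4.06% of protein-coding genes listed, lists of this size would hold few genes, and nothing is read from these counts of 0. Of the 54 annotated genes of the intracellular pathogen response list, skr-5 and C53A5.9 alone were listed, and C53A5.9 had 3.47 FPKM in germline-depleted worms and 1.10 FPKM in germline controls (log2 fold change 1.66, DESeq2 adjusted p = 5.9e-09), and 2.14 FPKM in soma-depleted worms and 0.967 FPKM in soma controls (1.14, adjusted p = 0.00215).

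Young adult hermaphrodites can hold embryos, and genes named for early embryonic transcription were also listed. A list of sdz genes (named for zygotic transcription that needs the regulator SKN-1) and vet genes (very early transcripts) was added after the values were seen. It had 10 listed genes, 8 of its 36 annotated protein-coding genes and 2 annotated as pseudogenes, and 7 of the 10 were called higher and 2 lower after germline depletion, where 41.8% and 21.1% of all listed genes were called. The authors' deposited table gave vet-1 46.8 FPKM in germline-depleted worms and 13.2 FPKM in germline controls, and 41.6 FPKM in soma-depleted worms and 47.9 FPKM in soma controls. These means are close to those of skr-8, and vet-1 was named after its values were seen. The 2 genes called lower after germline depletion were sdz-24 and sdz-3. The gene sdz-24 had log2 fold changes of -1.17 in the germline and -1.39 in the soma, and sdz-3 had -1.05 in the germline. The median over the 10 genes was 11.5 FPKM in germline-depleted worms and 4.79 FPKM in germline controls, and 9.71 FPKM in soma-depleted worms and 11.7 FPKM in soma controls. The sum over the 10, in which sdz-27 and sdz-24 weigh most, was 537 FPKM in germline-depleted worms and 550 FPKM in germline controls, and 492 FPKM in soma-depleted worms and 622 FPKM in soma controls. The part of embryo content in the skr values was not tested.

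Splicing was the second readout, and it was independent of how the members were chosen. Of 3096 events in the authors' deposited table of splicing events, none overlapped or named any of the 20 skr genes. For the single-exon members no annotated intron exists in which an event could fall, and for skr-5, with 3 exons, no event was listed. Partners of the Skp1-related proteins did have events. Of 37 events in F-box genes, 16 had a q-value under 0.05 in the germline comparison and 24 in the soma comparison. These were 43.2% and 64.9%, where 26.5% and 53.1% of all listed events with a q-value were called. Every listed F-box event was called in the germline, the soma or the sperm against oocyte comparison described below. Only 6 of the 37 were called in the last. The shares are thus partly set by how events were listed, and no excess is read from them. The 16 germline calls came from 16 gene names and the 24 soma calls from 17, counting each name of an event shared between genes. The genes fbxa-193 and fbxc-45 each gave more than 1 germline call, and 6 of the 24 soma calls were overlapping skipped-exon events of fbxa-55. Of 12 events in cullin and SCF regulator genes 10 had a q-value in each comparison, and of these 1 was called in the germline comparison and 5 in the soma comparison. The authors also list sperm-producing against oocyte-producing worms of another study, where 11 of the 12 events were called. The differences there included 0.425 for csn-6, 0.313 for ula-1 and -0.029 for an event of dcn-1. The share of all listed events called there is not given here.

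The sign of a difference is given as deposited, since neither header nor labels say which group was subtracted. The SCF scaffold cul-1, the direct partner of Skp1, had an alternative 5 prime splice site event at 10474753 to 10476247 on chromosome III, also named for D2045.9, with an inclusion level difference of -0.062 in the germline comparison (q = 1) and -0.214 in the soma comparison (q = 0.00978). Alternative 3 prime splice sites (A3SS), the acceptor ends of introns, were called in both comparisons for the conserved F-box genes lin-23 and sel-10, which were chosen after their values were seen. The called F-box events went both ways, with 9 of 16 negative in the germline comparison and 17 of 24 in the soma comparison. Retained-intron events made up the other 3 F-box events called in both, by the authors' deposited table. One shared by fbxb-83 and fbxb-84 had differences of 0.667 in the germline and -0.677 in the soma, that of fbxa-46 had 0.159 and -0.295, and that of fbxc-45 had 0.255 and 0.188, in the same order. For lin-23, the worm beta-TrCP gene, the differences were -0.115 in the germline (q = 0.00807) and -0.108 in the soma (q = 0.0105) at chromosome II, 6373805 to 6374544. For sel-10, the worm Fbw7 gene, they were -0.163 in the germline (q = 0.0015) and -0.113 in the soma (q = 0.0108) at chromosome V, 13819630 to 13819726.

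The COP9 signalosome, which removes the activating modifier NEDD8 from cullins, was represented by csn-6, with an A3SS difference of -0.076 in the germline comparison (q = 0.274) and -0.342 in the soma comparison (q = 1.1e-12), and by 2 smaller events in csn-3, called in the soma with differences of -0.048 and -0.018. The cullin genes cul-2 and cul-4, which build ligases without Skp1, had A3SS differences of -0.042 and -0.038 in the germline (q = 0.613 and 0.0151) and of -0.268 and -0.017 in the soma (q = 1.1e-06 and 0.407), in the order cul-2 and then cul-4. All these values come from the authors' deposited table. For none of lin-23, sel-10, cul-1, cul-2, cul-4, csn-3 and csn-6 was the gene itself in the expression table. That table listed 4.06% of all annotated protein-coding genes, so nothing is read from these absences.

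**Figure D5:**
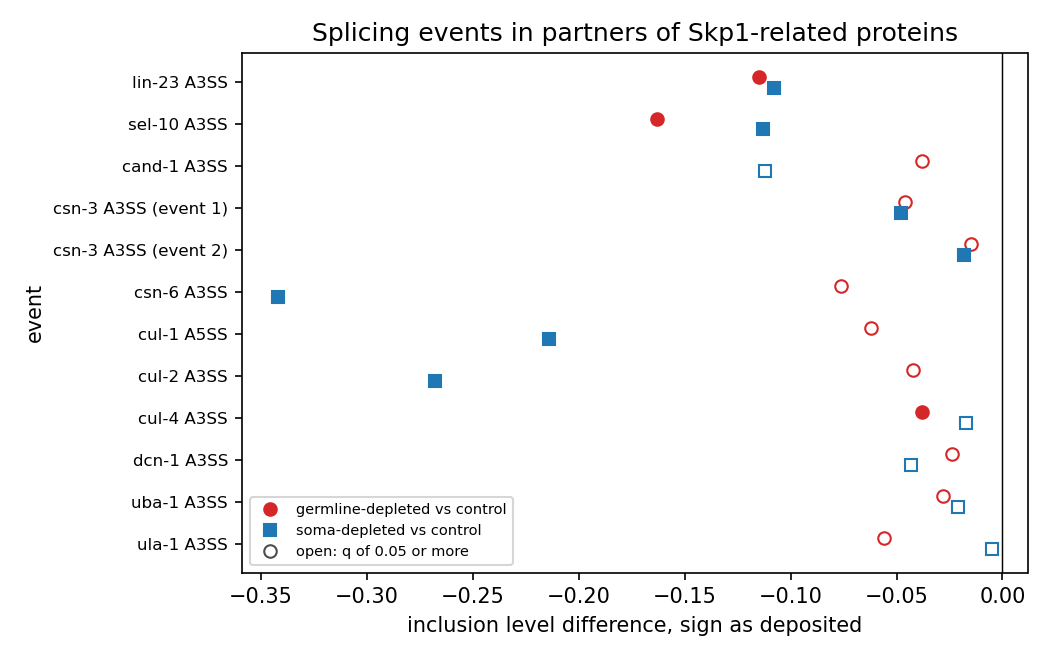
Inclusion level differences, with sign as deposited, for 12 splicing events with soma and germline values in lin-23, sel-10 and cullin or SCF regulator genes; red circles are the germline comparison, blue squares the soma comparison, and filled symbols have a q-value under 0.05. The lin-23 and sel-10 events were chosen after their values were seen, and called F-box events outside the plot went both ways. All 12 events plotted have negative values in both comparisons, called or not, and the farthest from 0 is csn-6 in the soma at -0.342. The share of negative values over all listed events is not given here, so nothing is read from the shared sign.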

How the data were processed

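Poly(A)+ RNA from 11 whole-worm samples in 4 groups was sequenced, per the labels, which describe biological replicates. The submitters' processing notes name STAR 2.7.2a, DESeq2 1.26.0, SAMtools 1.7, cutadapt 1.18 and Trim Galore 0.6.0, with build WBcel235/ce11, but no source used here names the read counter or the splicing caller. The authors deposited group mean FPKM values, log2 fold changes, Benjamini-Hochberg adjusted p-values and a mean count over all samples, on Ensembl 97 genes, per the file headers. The authors deposited a second table with q-values and inclusion level differences, used here as a signed score, per the file headers.

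The planned edgeR test was not run, because the tables hold no counts per sample. The header note words the germline fold change as one against the soma control; the authors' fold changes were read here as depleted over the control of the same tissue, since they lay within 0.1 of the log2 FPKM ratio for 882 genes in the germline and 880 in the soma. A call is an adjusted p, or a q-value, under 0.05. Coordinates come from Ensembl 115 (881 of 882 identifiers matched), and splicing starts, which the table appears to count from 0, are printed plus 1. Named genes were the members, other listed skr genes, listed genes of the adaptor lists, the 3 nearest profiles per member and 4 F-box genes by germline adjusted p; genes named for position or splicing were chosen after their values were seen. Members and lists were chosen with earlier results of these data known. Tools were matplotlib 3.10.9, pandas 2.3.3, scipy 1.17.1, numpy 2.4.6 and Python 3.11.15, and the nearest-profile search was tested on simulated data. No sequences were analysed here.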

Additional observations from a re-analysis of the deposited data

How the results depend on the processing

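The 4 germline calls and the 1 soma call held at an adjusted p under 0.01, at a log2 fold change of at least 1 and at a mean count of at least 100. At a log2 fold change of at least 1.5, 3 members were called in the germline and 0 in the soma; skr-7 (1.46) and skr-5 (-1.02) fall below that size. Log2 ratios of FPKM with pseudocounts of 0, 0.1 and 1 kept every direction and lay within 0.1 of the authors' fold changes, except skr-12 in the germline comparison, at 1.81 with a pseudocount of 1, which shrinks ratios of low values by construction. With Pearson correlation over the 4 group means as the measure of likeness, the 3 nearest genes shared 2 with those given for skr-5, 1 each for skr-7, skr-8 and skr-10, and 0 for skr-12; correlation ignores the size of the differences, so these names depend on the measure. No paired analysis was possible because the tables hold group means only, and leaving out single replicates could not be run for the same reason.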

Other observations

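Adjusted p-values of the skr genes did not follow their counts. In the authors' deposited table skr-7 had a mean count of 829 and a germline log2 fold change of 1.46 with a DESeq2 adjusted p of 0.00014, and skr-14, its neighbour, had a mean count of 561 and a log2 fold change of 1.58 with an adjusted p of 6.7e-10. Likewise skr-9 (mean count 388, log2 fold change 1.64) had an adjusted p of 0.00011 and skr-13 (mean count 372, log2 fold change 1.60) one of 2.4e-08. If the p-values come from a Wald test, the standard error was at most 0.38 for skr-7 and 0.42 for skr-9, against 0.26 for skr-14 and 0.29 for skr-13. The spread of single samples was not analysed here.

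Single-exon protein-coding genes other than skr genes were counted by direction in the authors' deposited table. Of 69 such genes 30 were called higher and 9 lower after germline depletion, and 37 higher and 8 lower after soma depletion. Of 742 protein-coding genes with several exons, 291 were higher and 174 lower in the germline comparison, and 201 higher and 252 lower in the soma comparison. None of the 8 single-exon skr genes was called in the soma. Of the 369 listed genes called higher after germline depletion, as these 8 were, 277 were not called in the soma either. The 69 other single-exon genes include genes listed through the soma comparison alone, so the 2 sets are not alike in selection.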
